A study of Mus musculus with 3 samples.

Results

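The 36 genes described here encode cytosolic and mitochondrial chaperones, proteins that help other proteins fold, stay folded or refold. They were chosen by name from 33605 gene symbols and comprise heat shock factors, HSP70 proteins with their exchange factors and J proteins, HSP90 proteins with co-chaperones, 1 small heat shock protein and the 8 subunits of the CCT ring. Each was found in the deposited tables, and each had a mean over the 3 libraries of at least 1 RPKM (reads scaled to gene length and library total), as did 14790 symbols in all. The RNA came from CD43- splenic B cells of C57BL/6 mice, cultured for 3 days with LPS, a bacterial lipopolysaccharide, and the cytokine IL4. Cultures carried JQ1+ at 80 nM, flavopiridol at 30 nM, or DMSO, the vehicle. JQ1 displaces BET bromodomain proteins from acetylated chromatin, and flavopiridol inhibits cyclin-dependent kinases including Cdk9, which releases paused RNA polymerase II. The labels do not say how many mice gave the cells, or whether the 3 cultures shared mice.

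HSP70 binds short hydrophobic stretches of unfolded proteins in a cycle driven by ATP: J proteins deliver clients and start ATP hydrolysis, and nucleotide exchange factors then let the client go. HSP90 acts later on nearly folded clients, many of them kinases and receptors, while CCT encloses actin, tubulin and other proteins in a barrel. Under heat or other proteotoxic stress HSF1 switches on inducible members such as Hspa1a, Hspa1b and Hspb1, whereas Hspa8, Hsp90ab1 and the CCT genes are made all the time. B cells stimulated to divide grow and make protein at a high rate, and so carry a large load of new chains to fold.

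Each treatment was sequenced as 1 library, so nothing below could be set against replicate spread or tested. The counts summed to between 50184508 and 59786847 per library. The log2 change of a gene was taken after adding 1 RPKM to each value, and the gene is called higher or lower where this reached 1 in either direction, that is 2-fold. Beside plain RPKM ratios stands the 95% interval from counting error alone, which leaves out variation from culture to culture. For these intervals the counts were divided by 2.72 to 2.92, the ratio of each library's summed counts to the total behind its RPKM. RPKM is relative to the library's own total, and in bulk RNA fewer cells of a type and less RNA per cell cannot be told apart. The 6 B cell markers stood between 137 and 8404 RPKM in every library, and the CD3 genes Cd3d, Cd3e and Cd3g reached at most 0.86. The whole list of 6 T cell markers summed to 25.9 RPKM in JQ1+ and 16.4 in flavopiridol, against 22.2 in DMSO, and most of each sum was the kinase gene Lck (23.9 and 14.5 RPKM, against 20.5 in DMSO). Markers of other cells also differed between the libraries. The 6 dendritic markers summed to 10.7 RPKM in JQ1+ and 35.1 in flavopiridol, against 90.0 in DMSO, with Batf3 (2.98 and 11.1 RPKM, against 55.9 in DMSO) and Flt3 (2.55 and 14.6 RPKM, against 26.6 in DMSO) differing most. Other dendritic markers were not lower with flavopiridol: Xcr1 stood at 0.76 RPKM in JQ1+ and 2.59 in flavopiridol, against 0.92 in DMSO. Zbtb46 stood at 4.36 and 6.85 RPKM, against 6.63 in DMSO, and Itgax reached at most 0.03. The 6 myeloid markers summed to 10.4 RPKM in JQ1+ and 19.1 in flavopiridol, against 13.6 in DMSO, and of these Emr1 stood at 9.47 RPKM in flavopiridol and at 0.80 in JQ1+, against 0.92 in DMSO. Csf1r and Fcgr3 went the other way, at 3.95 and 5.12 RPKM in flavopiridol, against 6.41 and 5.68 in DMSO. Lyz2 stood at 1.94 RPKM in JQ1+ and 0.04 in flavopiridol, against 0.18 in DMSO. Itgam and Cd14 stayed under 1 RPKM in each library. The 4 stroma markers summed to 5.30 RPKM in JQ1+ and 12.2 in flavopiridol, against 22.1 in DMSO, nearly all of it Pecam1, and the 3 erythroid markers found summed to at most 2.07. Siglech, which defines plasmacytoid dendritic cells, stood at no more than 0.03 RPKM. Whether these transcripts came from such other cells, and the part of any such cells in the chaperone values, was not tested.

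Among the 36 chaperone genes the flavopiridol library held the highest value of 34, and the JQ1+ library the lowest value of 26. No gene was highest in JQ1+ and none lowest in flavopiridol. For these counts no share of all measured genes was worked out, and they depend on the scale. All measured genes leaned the same way: 63.7% were higher with flavopiridol than in DMSO, and 69.9% were lower in JQ1+ than in flavopiridol. After rescaling the libraries by their median of ratios, Hsf2 and Dnajb1 were highest in JQ1+ and Dnajc7 was lowest in flavopiridol. For 24 genes, 66.7% of the 36, the order was JQ1+ lowest, DMSO in the middle and flavopiridol highest, an order that 33.6% of all measured genes also had. Together the 36 genes took 0.94% of counts in JQ1+ and 1.30% in flavopiridol, against 1.08% in DMSO.

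Against DMSO no chaperone gene was called with JQ1+, where 1.98% of all genes were called higher and 5.29% lower. Their log2 changes lay between -0.72 for Hspa9 and 0.47 for Dnajb4, with a median of -0.19 beside -0.08 for all genes, and 26 of the 36 stood below 0, as did 59.7% of all genes. With flavopiridol none was called against DMSO either, where 3.55% of all genes were called higher and 2.88% lower, but 34 of the 36 stood above 0, as did 63.7% of all genes. Their log2 changes with flavopiridol lay between -0.14 for Dnajc7 and 0.94 for Dnajb4, with a median of 0.41 beside 0.13. Under a looser 1.5-fold rule 9 of the 36 were higher with flavopiridol, 25.0% of them beside 12.3% of all genes, and Hspa9 was the 1 gene lower with JQ1+, where 12.7% of all genes were. None of the 36 was higher with JQ1+ at 1.5-fold, beside 6.10%, and none lower with flavopiridol, beside 7.56%.

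Set directly against flavopiridol, JQ1+ gave lower values for all 36 genes, as for 69.9% of all genes, and higher values for none, beside 30.1%. Of the 36, 4 were called lower, Hspa1a, Hspa1b, Hspa9 and Bag3, which is 11.1% beside 6.87% of all genes. None was called higher, beside 2.06%. With the near-identical Hspa1a and Hspa1b summed to 1 gene, 3 of 35 were called lower. None of the 4 calls held under every setting. With a pseudocount of 5 RPKM, Hspa1a, Hspa1b and Bag3 had log2 changes of -0.75, -0.77 and -0.74. Hspa9 had -0.91 after rescaling by the median of ratios. The share of 11.1% thus rests on few genes and on the settings. Over the 36 genes the median log2 change was -0.55 beside -0.21 for all genes. At 1.5-fold, 16 of the 36 were lower, 44.4% beside 20.9% of all genes, and none was higher, beside 5.51%. The 3 comparisons share libraries, so they are not independent of each other.

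A shift of the median of all genes went with these differences. Measured from that median, 33 of the 36 stood higher with flavopiridol against DMSO, and 33 stood lower in JQ1+ against flavopiridol. Against DMSO with JQ1+, 23 stood lower than that median. Rescaling the libraries by their median of ratios moved the log2 median of all genes to 0.01 with flavopiridol against DMSO and to -0.03 in JQ1+ against flavopiridol. The lower share of all called genes then moved to 57.9% instead of 44.8% with flavopiridol against DMSO, and to 58.8% instead of 77.0% between the drugs. On that scale the chaperone medians were 0.28 and -0.34, and 33 of the 36 were below 0 between the drugs, all but Hsf2, Dnajb1 and Dnajc7. With JQ1+ against DMSO 23 were below 0 on that scale, with a chaperone median of -0.11 beside -0.01 for all genes. The share of all genes below 0 on that scale was not worked out, so these counts have no background beside them.

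**Figure D1:**
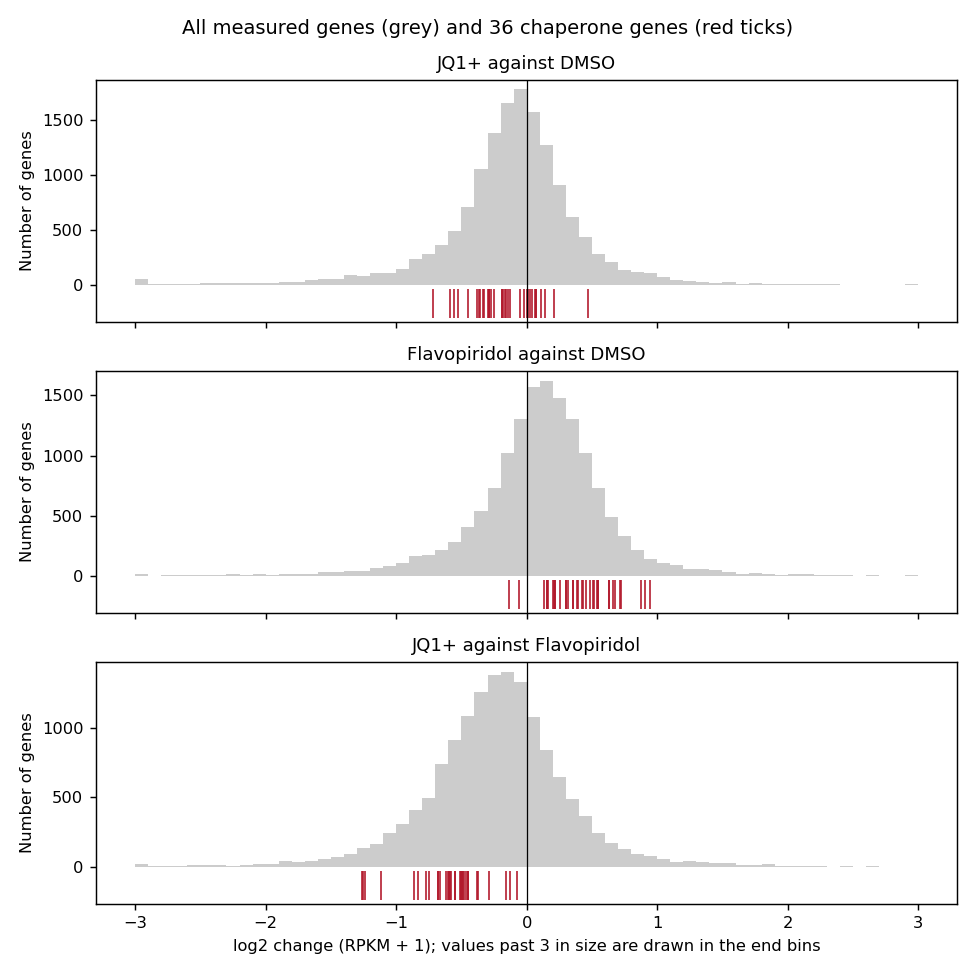
Histograms of the log2 change of 14790 genes (grey, number of genes per bin) in the 3 comparisons, with each of the 36 chaperone genes as a red tick below. The ticks lie mostly right of the peak with flavopiridol against DMSO, median 0.41, and all left of 0 in JQ1+ against flavopiridol, median -0.55.

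The heat shock factors differed little between libraries. Hsf1, the main switch of the heat shock response, stood at 37.2 RPKM in JQ1+ and 48.8 in flavopiridol, against 41.8 in DMSO. Hsf2, a relative that forms mixed complexes with HSF1, stood at 16.7 and 18.4 RPKM, against 15.8 in DMSO. The values of Hsf1 say nothing of its activity, which is set largely by its release from chaperones and by modification of the protein.

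Among the HSP70 genes the inducible pair Hspa1a and Hspa1b was scarce in all 3 libraries. Hspa1a stood at 2.86 RPKM in JQ1+ and 8.21 in flavopiridol, against 4.02 in DMSO, and Hspa1b at 3.33 and 9.23, against 4.45 in DMSO. Their summed RPKM was 0.768% of that of the constitutive Hspa8 in JQ1+ and 1.59% in flavopiridol, against 0.861% in DMSO. Both were called lower in JQ1+ than in flavopiridol: Hspa1a was 2.87-fold (interval 2.10 to 3.97) and Hspa1b 2.78-fold (interval 2.06 to 3.77). Over DMSO, flavopiridol gave 2.04 times as much Hspa1a (interval 1.55 to 2.70) and 2.08 times as much Hspa1b (interval 1.59 to 2.72), just past 2-fold in plain RPKM, but log2 changes of 0.87 and 0.91 with the pseudocount, just inside the rule. Against DMSO the JQ1+ changes were -0.38 and -0.33, with intervals of the plain ratio that included 1. This depended on the division of the counts: undivided, the intervals were 0.58 to 0.87 for Hspa1a and 0.61 to 0.91 for Hspa1b. The coding sequences of these neighbours are nearly the same, so how reads were split between them is uncertain, and they do not count as separate evidence.

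The promoters of the called genes are given because HSF1 binds repeats of GAA and TTC, the heat shock element. RefSeq promoters (GRCm38.p6, 250 bases before to 50 after the start site) were matched by symbol for 30 of the 36 genes, and not for Hsf1, Hspa8, Hspa9, Hsp90aa1, Hsp90ab1 and Cct4. The expression files use mm9, so these positions apply to the sequences alone. Below are the 250 bases before the start site of Hspa1a (chr17:34972157-34972406, minus strand), Hspa1b (chr17:34959239-34959488, minus strand) and Bag3 (chr7:128523333-128523582, plus strand). Dnajb6 (chr5:29735648-29735897, plus strand) is added for its longer element. Capitals mark matches to GAANNTTC, to TTCNNGAA or to the longer element of GAA, TTC and GAA with any 2 bases between them, sought on both strands.
Hspa1a: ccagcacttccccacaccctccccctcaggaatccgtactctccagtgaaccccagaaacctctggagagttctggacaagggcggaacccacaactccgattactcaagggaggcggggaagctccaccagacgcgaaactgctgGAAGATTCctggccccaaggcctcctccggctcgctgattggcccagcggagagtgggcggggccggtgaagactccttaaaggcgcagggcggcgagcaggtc
Hspa1b: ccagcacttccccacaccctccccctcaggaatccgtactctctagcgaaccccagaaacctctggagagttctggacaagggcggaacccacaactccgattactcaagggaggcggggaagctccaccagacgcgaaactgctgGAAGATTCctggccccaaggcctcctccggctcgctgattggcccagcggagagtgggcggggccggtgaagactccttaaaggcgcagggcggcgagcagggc
Bag3: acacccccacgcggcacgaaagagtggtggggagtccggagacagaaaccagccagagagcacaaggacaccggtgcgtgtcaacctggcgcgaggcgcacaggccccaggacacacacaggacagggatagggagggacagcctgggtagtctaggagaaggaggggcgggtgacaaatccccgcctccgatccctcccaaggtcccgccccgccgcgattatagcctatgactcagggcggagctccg
Dnajb6: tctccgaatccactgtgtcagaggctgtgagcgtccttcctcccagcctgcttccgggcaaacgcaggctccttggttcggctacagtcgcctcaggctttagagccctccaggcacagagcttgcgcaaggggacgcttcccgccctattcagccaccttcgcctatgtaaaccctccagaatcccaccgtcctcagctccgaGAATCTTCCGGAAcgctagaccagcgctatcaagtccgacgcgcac
The Hspa1a and Hspa1b stretches were the same at 247 of 250 aligned bases, 98.8%, and each held GAANNTTC between 104 and 97 bases before the start site. In the Bag3 stretch no match was found, although GAANNTTC occurred within the 50 bases after its start site. The longer element occurred in promoters of 2 of the 30 genes, Dnajb6, between 46 and 34 bases before the start site, and Hsph1, after its start site. Counted by promoter it occurred in 4 of their 39 (10.3%) and in 0.603% of all 32851. Dnajb6 and Hsph1 each held it in overlapping promoters, so the same site was counted again, here and for the shorter elements. GAANNTTC, part of the longer element and so counted again there, occurred for 8 of the 30 genes (Bag3, Cct2, Dnaja1, Dnajb6, Hspa1a, Hspa1b, Hspb1 and Hsph1), in 25.6% of their 39 promoters and in 7.86% of all. TTCNNGAA, likewise contained in it, occurred for 6 (Cct5, Cct6a, Cdc37, Dnajb4, Dnajb6 and Hsph1), in 20.5% of their promoters and in 8.52% of all. A match is a description of letters and not a bound site.

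The remaining HSP70 genes covered a wide range of levels. Hspa8, the constitutive HSP70 of the cytosol, stood at 805 RPKM in JQ1+ and 1098 in flavopiridol, against 984 in DMSO, ranking next after Hsp90ab1 in every library. Hspa9, the HSP70 that pulls imported proteins into the mitochondrial matrix, stood at 315 RPKM in JQ1+ and 684 in flavopiridol, against 520 in DMSO. It had the lowest log2 change of the 36 with JQ1+ against DMSO, -0.72, or 1.65-fold lower in plain RPKM (interval 1.61 to 1.70). Between the drugs Hspa9 was called, 2.17-fold lower in JQ1+ (interval 2.12 to 2.23), a log2 change of -1.12 that became -0.91, inside the rule, after rescaling by the median of ratios. Hspa2, best known from male germ cells, stood at 12.1 RPKM in JQ1+ and 17.4 in flavopiridol, against 11.6 in DMSO. Hspa14, which works at the ribosome, stood at 30.3 and 37.2 RPKM, against 33.9 in DMSO. The tables hold a second row named Hspa14, at 17.9 RPKM in JQ1+ and 22.0 in flavopiridol, against 18.5 in DMSO, log2 changes of -0.05 with JQ1+ and 0.24 with flavopiridol.

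**Figure D2:**
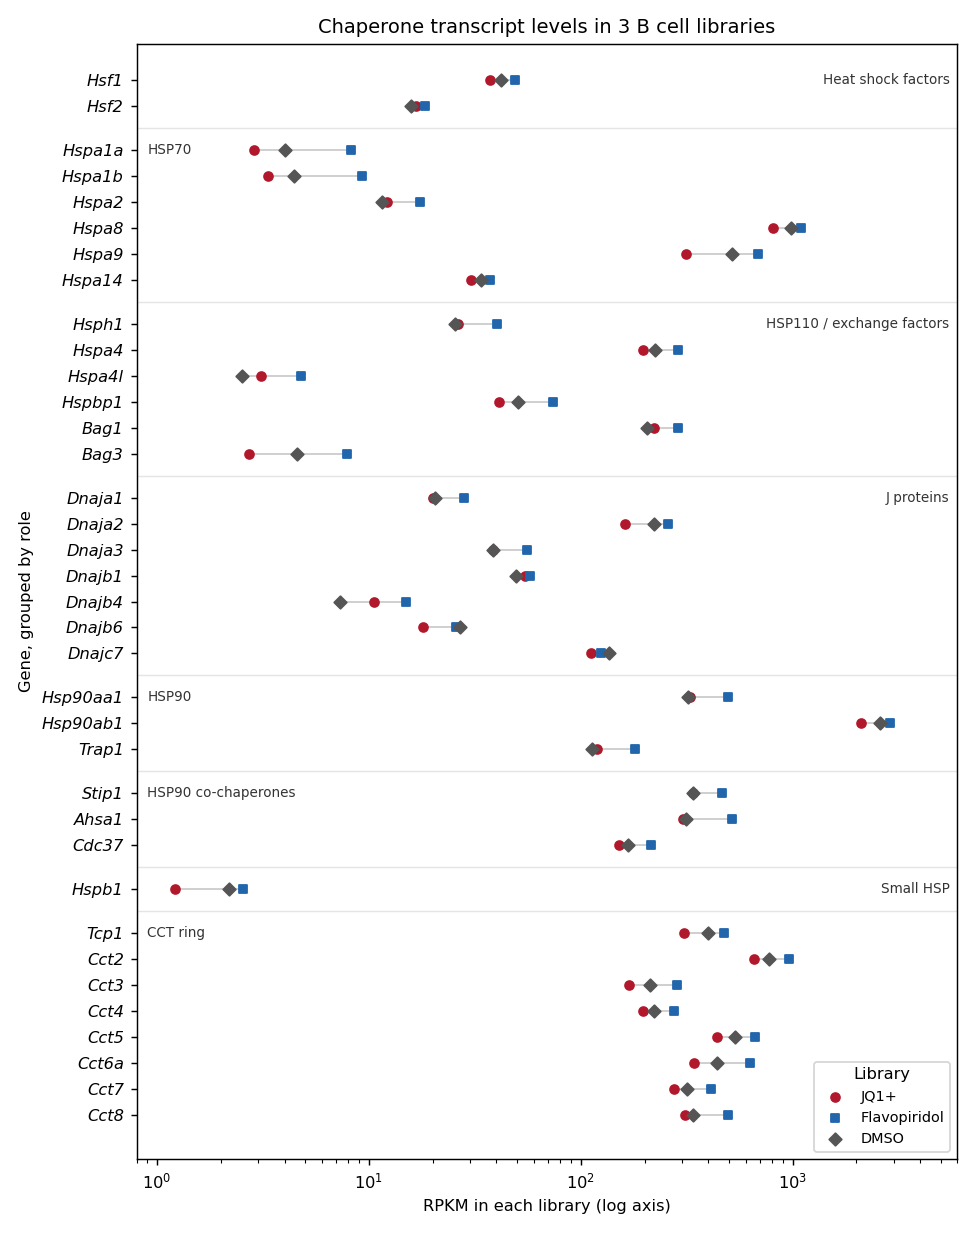
RPKM (log axis) of each of the 36 genes in the JQ1+, flavopiridol and DMSO libraries, 1 point per library, grouped by role. Flavopiridol is the rightmost point for 34 genes, and levels run from 1.21 RPKM for Hspb1 in JQ1+ to 2881 for Hsp90ab1 in flavopiridol.

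The exchange factors that free HSP70 of its client had a median log2 change of 0.58 with flavopiridol against DMSO over 6 genes, beside 0.13 for all genes, and of -0.08 with JQ1+. Bag3, which links HSP70 to autophagy and is induced by HSF1, was low like the Hspa1 pair, at 2.72 RPKM in JQ1+ and 7.92 in flavopiridol, against 4.58 in DMSO. It was called lower in JQ1+ than in flavopiridol, 2.91-fold (interval 2.07 to 4.14). JQ1+ lay 1.68-fold below DMSO (interval 1.17 to 2.44), and flavopiridol held 1.73 times the DMSO value (interval 1.30 to 2.30), neither past the rule. Hspa4l, a member of the HSP110 family, stood at 3.09 RPKM in JQ1+ and 4.80 in flavopiridol, against 2.53 in DMSO, 1.90 times the DMSO value with flavopiridol (interval 1.60 to 2.26).

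The other exchange factors were more abundant, and none of them was called. Hsph1, the stress-inducible HSP110, stood at 26.4 RPKM in JQ1+ and 40.2 in flavopiridol, against 25.6 in DMSO, so JQ1+ and DMSO lay close together. The same held for Bag1, whose product binds HSP70 and the proteasome, at 223 and 289 RPKM, against 206 in DMSO. Hspa4, the constitutive HSP110, differed in both directions, at 197 and 289 RPKM, against 225 in DMSO. Hspbp1, an exchange factor of another fold, had 40.9 RPKM in JQ1+ and 73.7 in flavopiridol, against 50.3 in DMSO, and JQ1+ was 1.80-fold below flavopiridol (interval 1.59 to 2.04).

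The 7 J protein genes, which recruit clients to HSP70, spanned a wider range of log2 changes against DMSO than any other role group here, from -0.56 to 0.47 with JQ1+ and from -0.14 to 0.94 with flavopiridol. Dnajb4 was the member nearest the rule with flavopiridol, at 10.5 RPKM in JQ1+ and 15.0 in flavopiridol, against 7.32 in DMSO. That was 2.05 times its DMSO value with flavopiridol (interval 1.73 to 2.42) and 1.44 times with JQ1+ (interval 1.21 to 1.71), and it had the highest log2 change of the 36 in both comparisons with DMSO. Dnajb1, the main stress-inducible partner of HSP70, by contrast stood at 54.7 RPKM in JQ1+ and 57.7 in flavopiridol, against 49.6 in DMSO, and the interval of its ratio between the drugs included 1. Dnajb6, which holds back aggregation of polyglutamine proteins, had 17.9 RPKM in JQ1+ and 25.8 in flavopiridol, against 26.9 in DMSO. Dnajc7, which binds both HSP70 and HSP90, had 111 and 124 RPKM, against 137 in DMSO. These were the 2 genes of the 36 that were highest in DMSO.

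The other J protein genes had their highest value in flavopiridol. Dnaja2, a general cytosolic J protein, stood at 162 RPKM in JQ1+ and 257 in flavopiridol, against 221 in DMSO. Its relative Dnaja1 had 20.2 and 28.0 RPKM, against 20.5 in DMSO. The length behind the RPKM, worked back from count and RPKM, was 8.63 kb for Dnaja1 and 2.84 kb for Dnaja2, and its part in the difference of their levels was not tested. Dnaja3, the J protein of mitochondria, stood at 38.7 and 55.5 RPKM, against 38.5 in DMSO.

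The HSP90 genes split by isoform. Hsp90ab1, the constitutive form, was the most abundant of the 36 in every library, at 2095 RPKM in JQ1+ and 2881 in flavopiridol, against 2579 in DMSO, and made up 25.7%, 23.7% and 26.6% of their summed RPKM in the same order. Hsp90aa1, the form that stress induces, stood at 327 RPKM in JQ1+ and 498 in flavopiridol, against 321 in DMSO. With flavopiridol Hsp90aa1 was 1.55 times its DMSO value (interval 1.51 to 1.60) and Hsp90ab1 1.12 times (interval 1.10 to 1.13), so the intervals did not meet. As a percentage of Hsp90ab1 RPKM, Hsp90aa1 was 15.6 in JQ1+ and 17.3 in flavopiridol, against 12.4 in DMSO, higher with either drug. Processed copies of such abundant genes exist in the genome, and no source used here says how reads with several matches were treated. Trap1, the HSP90 of mitochondria, stood at 119 RPKM in JQ1+ and 180 in flavopiridol, against 113 in DMSO.

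The mitochondrial chaperones thus did not share a pattern with JQ1+. Against DMSO, Trap1 and Dnaja3 had log2 changes of 0.07 and 0.01 with intervals of the ratio that included 1, while Hspa9 had -0.72. With undivided counts the interval of Trap1 excluded 1 (1.015 to 1.091) and that of Dnaja3 did not. Trap1 amounted to 37.7% of the Hspa9 RPKM in JQ1+ and 26.2% in flavopiridol, against 21.7% in DMSO. With flavopiridol against DMSO the 3 genes had log2 changes of 0.66, 0.52 and 0.40 for Trap1, Dnaja3 and Hspa9. Counts of genes encoded by mitochondrial DNA took 4.49% of the JQ1+ library and 4.74% of the flavopiridol library, against 3.90% of the DMSO library, and their part in these values was not tested.

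The 3 HSP90 co-chaperones among the 36 genes lay near their DMSO level in JQ1+ and above it in flavopiridol. Stip1, which hands clients over by bridging HSP70 and HSP90, stood at 338 RPKM in JQ1+ and 463 in flavopiridol, against 338 in DMSO. Ahsa1, which speeds ATP hydrolysis by HSP90, stood at 303 and 518 RPKM, against 314 in DMSO, 1.65 times the DMSO value with flavopiridol (interval 1.57 to 1.73). Cdc37, which brings kinases to HSP90, stood at 151 and 214 RPKM, against 167 in DMSO. Hspb1, the small heat shock protein, was near the limit of measurement, at 1.21 RPKM in JQ1+ and 2.54 in flavopiridol, against 2.19 in DMSO. With the divided counts its intervals included 1 in all 3 comparisons. With undivided counts they excluded 1 for JQ1+ against DMSO (ratio 0.552, interval 0.324 to 0.920) and for JQ1+ against flavopiridol (0.475, interval 0.277 to 0.797), so whether these differences exceed counting error depends on that division.

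**Figure D3:**
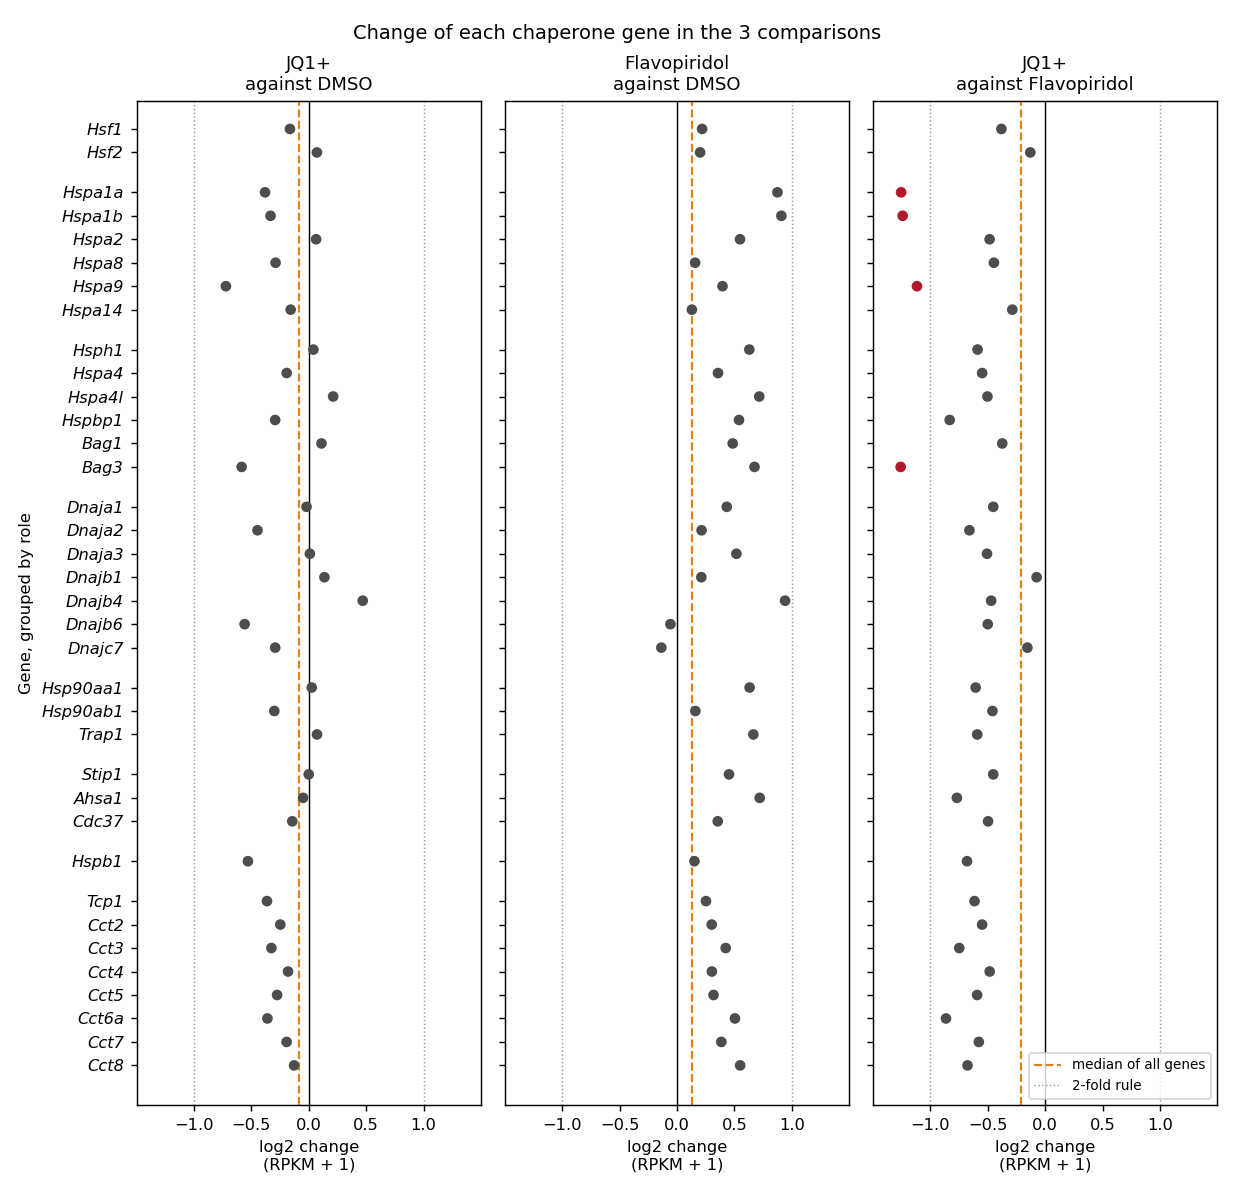
Log2 change, (RPKM + 1), of the 36 genes in JQ1+ against DMSO, flavopiridol against DMSO and JQ1+ against flavopiridol, grouped by role. Dashed lines mark the median of all genes, dotted lines the 2-fold rule, and the 4 called genes (red) all lie in the last panel.

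The CCT genes stood in 1 order throughout. All 8 subunit genes had the order JQ1+ lowest, DMSO in the middle and flavopiridol highest, and all 24 of their log2 changes were within the rule. Against DMSO they ranged from -0.36 to -0.13 with JQ1+, median -0.26, and from 0.25 to 0.55 with flavopiridol, median 0.35. Between the drugs they ranged from -0.86 for Cct6a to -0.48 for Cct4, median -0.61. Their summed level was 2697 RPKM in JQ1+ and 4191 in flavopiridol, against 3236 in DMSO, 33.1%, 34.5% and 33.4% of the sum over the 36 genes in the same order.

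Within a library the CCT subunits were not equal in RPKM, although the assembled ring holds each subunit in the same number. Cct2 was the highest in each library, at 654 RPKM in JQ1+ and 958 in flavopiridol, against 777 in DMSO. Cct5 came next, at 439 and 664 RPKM, against 532 in DMSO, and then Cct6a, at 344 and 627 RPKM, against 441 in DMSO. The lowest was Cct3 at 168 RPKM in JQ1+ and Cct4 at 275 in flavopiridol, against Cct3 at 211 in DMSO, so the highest was 3.88, 3.48 and 3.68 times the lowest in the same order. The length behind the RPKM was 4.69 kb for Cct3 and 1.96 kb for Cct2, and the part of the gene models in this order was not tested.

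The other subunits lay between these. Tcp1, the alpha subunit, stood at 309 RPKM in JQ1+ and 474 in flavopiridol, against 398 in DMSO. Cct7 stood at 276 and 413 RPKM, against 316 in DMSO, and Cct8 at 310 and 496 RPKM, against 339 in DMSO. Tcp1 ranked above Cct8 in DMSO and just below it in both drug libraries. Cct6a had the largest difference of the ring between the drugs, 1.82-fold lower in JQ1+ (interval 1.75 to 1.90), and Cct4 the smallest, 1.40-fold (interval 1.35 to 1.45), so the subunits differed among themselves beyond counting error.

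**Figure D4:**
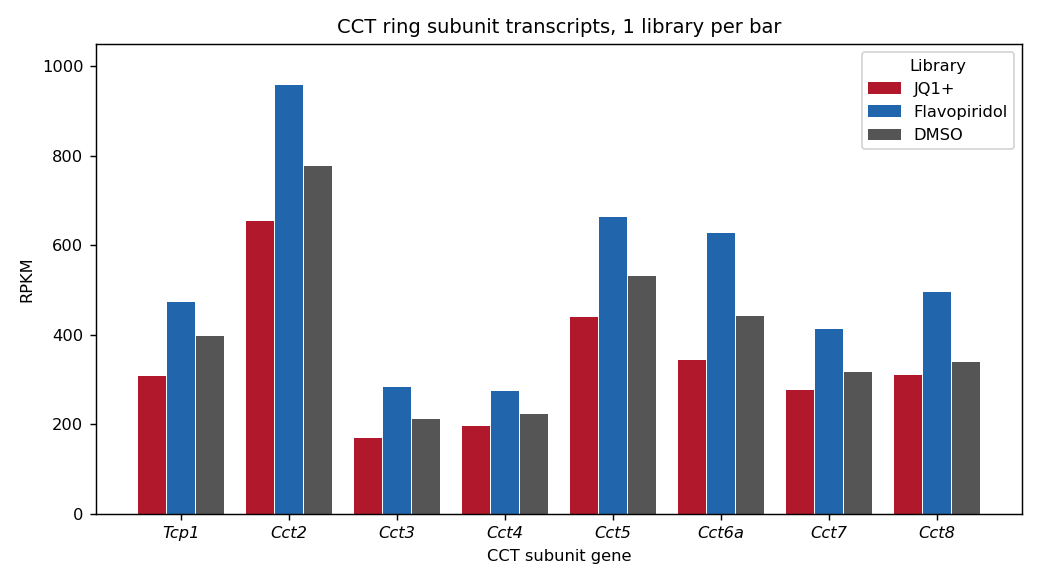
RPKM of the 8 CCT subunit genes in the JQ1+, flavopiridol and DMSO libraries, 1 library per bar. For each subunit the flavopiridol bar is the tallest and the JQ1+ bar the shortest, and Cct2 is the highest subunit in each library.

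A wider list of 56 other genes of the pathway was described the same way. Of these 55 were found by symbol, all but Pfdn6, and 48 had a mean of at least 1 RPKM. With JQ1+ against DMSO 1 of 48 (2.08%) was called lower, against 5.29% of all genes tested, and none higher, against 1.98%. With flavopiridol against DMSO 1 (2.08%) was called higher, against 3.55% of all genes, and none lower, against 2.88%. Between the drugs 3 (6.25%) were called lower in JQ1+, against 6.87% of all genes, and none higher, against 2.06%. The shares called were near or under those of all genes. The list medians were -0.11, 0.28 and -0.35 in the same order, each between that of the 36 genes and that of all genes.

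Bag2, an exchange factor that also blocks the ubiquitin ligase CHIP, fell with JQ1+ to 10.8 RPKM and stood at 37.3 in flavopiridol, against 22.9 in DMSO. It was 2.12-fold lower in JQ1+ than in DMSO (interval 1.76 to 2.55) and 3.45-fold below flavopiridol (interval 2.89 to 4.13). The log2 change of Bag2 with JQ1+ against DMSO was -1.02, just past the rule. Hspd1, the HSP60 that forms the folding chamber of mitochondria, stood at 218 RPKM in JQ1+ and rose with flavopiridol to 512, against 238 in DMSO, 2.15 times (interval 2.08 to 2.23). Hspd1 was also called lower in JQ1+ than in flavopiridol, 2.35-fold (interval 2.26 to 2.44). Hspe1, its lid, was chosen after its values were seen, since both genes share a promoter region. It stood at 198 and 323 RPKM, against 210 in DMSO, a log2 change of 0.62 with flavopiridol that did not pass the rule. Clpp, a protease of the mitochondrial matrix, had 50.2 RPKM in JQ1+ and 102 in flavopiridol, against 55.6 in DMSO, and was called lower in JQ1+ than in flavopiridol, 2.04-fold (interval 1.80 to 2.30).

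The uncalled genes of the wider list with the largest changes were also lower in JQ1+ than in flavopiridol. The HSP90 co-chaperones Nudc, Fkbp4 and Ppp5c had log2 changes of -0.87, -0.85 and -0.81 between the drugs. Lonp1, the main quality-control protease of mitochondria, had -0.80. Not measured at 1 RPKM were Cct6b, Cryab, Hspb8, Hspa12a, Hspa12b, Hsf4 and Hsf5, so of the small heat shock genes on the lists only Hspb1, Hspb6 and Hspb11 reached that level in these cells.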

How the data were processed

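RNA was measured in 3 libraries, 1 each for JQ1+, flavopiridol and DMSO, grouped by the treatment label. Per the labels' protocols, total RNA was extracted with Trizol and ribosomal RNA depleted with Ribo-Zero, so RNA without poly(A) and unspliced RNA also contribute. The deposited count column, so named in the file headers, was read as whole, unnormalised counts per gene. What 1 count stands for is not stated. The authors scaled the RPKM column to gene length and library depth, as its name in the file headers says. For the genome, mm9 is named in the submitters' processing notes. The sources used here do not give the aligner, counter, annotation or strand use.

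The library total behind the RPKM was worked back from the counts and GENCODE M21 exon lengths, by identifier, over genes that matched within 0.1%. Of the genes compared, 45.4% matched for JQ1+, 45.2% for flavopiridol and 45.5% for DMSO. The total was 18846506 for JQ1+, 17162734 for flavopiridol and 21047843 for DMSO, so counts summed to 2.72, 2.92 and 2.84 times these totals. Counts were divided by these ratios for exact conditional binomial 95% intervals (scipy 1.17.1), which cover counting error only.

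The log2 change used a pseudocount of 1 RPKM, which understates changes of low genes, over symbols with a 3-library mean of at least 1 RPKM. For the 94 symbols with several rows the highest was used. With 1 library per group no count model was fitted. The script was tested on simulated data. Alternatives were other pseudocounts, filters, scalings, gene types, row sums and a 1.5-fold rule. The members and lists were chosen with earlier results of these data known. Full values were to be given for called members, the 6 most abundant, a fixed set of main chaperones and the 2 members of each role with the largest change, with the called genes and at most 4 others of the wider list.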

Additional observations from a re-analysis of the deposited data

How the results depend on the processing

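No paired analysis was possible because each treatment has 1 library, and for the same reason no replicate could be left out. Across 9 alternatives at 2-fold, no chaperone gene was called with JQ1+ against DMSO. With flavopiridol against DMSO, 3 were called higher with a pseudocount of 0.1 RPKM (Hspa1a 1.01, Hspa1b 1.04 and Dnajb4 1.02) and none otherwise. Between the drugs the 4 calls became 1 with a pseudocount of 5 RPKM, which left Hspa9, and 5 with 0.1 RPKM, which added Hspb1 (-1.01). A 1.5-fold rule gave 1, 9 and 16 called genes in the 3 comparisons, in the order JQ1+ against DMSO, flavopiridol against DMSO and JQ1+ against flavopiridol. After median-of-ratios rescaling the chaperone medians were 0.28 with flavopiridol against DMSO and -0.34 between the drugs, and CPM in place of RPKM gave -0.45 between the drugs. The count of members below the median of all genes was 31 to 35 between the drugs and 2 or 3 with flavopiridol against DMSO. Counts over all genes also depended on the settings: at 2-fold, the called lower in JQ1+ against flavopiridol were 1016 as reported, 329 with a pseudocount of 5 RPKM and 1511 with 0.1 RPKM, those higher with flavopiridol against DMSO 525, 139 and 867, and those lower with JQ1+ against DMSO 782, 363 and 1144. Summing Hspa1a and Hspa1b to 1 gene was added after the data were seen and left 3 calls between the drugs. With undivided counts the intervals of 30, 34 and 34 members excluded 1 in the 3 comparisons, instead of 24, 33 and 33. The members added were Hspa1a, Hspa1b, Hsp90aa1, Trap1, Ahsa1 and Hspb1 with JQ1+ against DMSO, Hsf2 with flavopiridol against DMSO and Hspb1 between the drugs. No share of all genes stands beside these interval counts, so they are not a result about chaperones. Intervals narrow as counts rise, and the members were abundant, with a median of 152 RPKM in DMSO beside 19.2 for all measured genes. Depth limits Hspb1 most.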
